A study of Mus musculus with 4 samples.

Results

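The transcripts described here come from the mouse mitochondrial genome, as read by the 30 probe sets whose identifiers place them on it, out of 72688 probe sets of the series. They were selected on the identifier alone, but the set was taken up because earlier results of these data had shown its high signal and its lower signal in one cell fraction. Levels and differences of these probe sets are therefore a description and support no claim. Each probe set is a transcript cluster, a group of probes designed for one transcribed stretch. Of the 30 clusters, 7 carry 1 gene symbol, 4 carry several symbols of neighbouring genes and 19 carry none. An unnamed cluster is called here by the number in its identifier, so cluster 28 is TC0M00000028.mm.1.

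Total RNA came from the liver macrophages of mice, male and of strain C57BL/6J, whose disease state the labels give as CRCLM model. One treatment was an antibody that binds the chemokine CCL3, a signal by which myeloid cells are recruited, and the other an isotype control antibody, with 2 arrays each. The arrays of a group are of different cell fractions, whose names hold F_4_80 and CD11b, which are markers on the surface of macrophages and other myeloid cells, and end in the letter m or p. What the letters stand for is not spelled out, and they are used here as names only. The sources used here do not give the ages of the mice, the tumour cells of the model or the number of animals behind an array. Each combination of antibody and fraction has 1 array, so no value within a combination has a replicate error, and the p-values measure only the spread left in 4 arrays.

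Mitochondria keep a small circular genome that encodes ribosomal RNAs, transfer RNAs and a few core subunits of the respiratory chain. Both strands are transcribed as long precursors that are cut into the single RNAs, mostly at the transfer RNAs that lie between the genes. ND genes encode subunits of complex I, which takes electrons from NADH, CYTB a subunit of complex III, COX genes subunits of complex IV, which hands electrons to oxygen, and ATP6 and ATP8 subunits of complex V, the ATP synthase. All other subunits of these complexes are encoded in the nucleus. Macrophages shift between oxidative phosphorylation and glycolysis with their state of activation. By the first symbol of each, the 11 annotated mitochondrial clusters were numbered in gene order, from mt-Rnr1 at number 2 to ND6 at number 27. The order was that of the RefSeq gene table of GRCm38.p6. It does not give the places of further genes of a shared cluster or of the unnamed clusters.

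As a check of the arrays, the median signal of 65770 transcript clusters was 6.18 to 6.21 on the log2 scale on each array, while the 99th percentile was 15.6 (m) and 15.2 (p) under anti-CCL3 and 15.2 (m) and 14.5 (p) under the isotype antibody. The bright end of the array of fraction p under the isotype antibody was thus the dimmest. Of 17 macrophage and Kupffer cell markers, the median was 6.18, below the negative-control median of 6.34, and none reached the 95th percentile of those controls, 11.6. The highest was the scavenger receptor gene Marco at 8.40, and the mean of the 17 was 6.34 to 6.38 on each array. Among those tested, Cd68 and Marco differed by -0.21 and -0.14 between fractions p and m, and Cd5l and C1qc by 0.10 and 0.33. All 10 marker lists together held 52 measured genes of macrophages, monocytes, hepatocytes, endothelium, lymphocytes, neutrophils, erythroid cells and tumour epithelium. Their list medians ran from 5.86 to 7.03, and 0 genes lay above the 95th percentile of the negative controls. By this bar the labelled cell type did not stand out in its defining transcripts, and neither did another one. The bar is high, as 2615 of all 65770 transcript clusters had mean signals from 10 to 17.9. Marco and the neutrophil gene Ly6g, at 7.98, lay above the upper quartile of the negative controls, 7.84. List medians of the difference between fractions p and m ran from -0.10 to 0.02. Single markers of other cell types lay farther out, with the T cell gene Cd3d at 0.63 (0.59 under anti-CCL3, 0.67 under the isotype antibody). The NK cell gene Klrb1c was at -0.66 (-0.98 and -0.35), and Ly6g at 0.54 (-0.21 and 1.29). The T and NK cell lists had no common direction. Their other tested members were Cd3g at -0.09, and Nkg7, Ncr1 and Gzma at -0.19, 0.11 and 0.41. These genes were named after their values were seen. The part of cell composition in the results below was not tested.

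The mitochondrial clusters had a median signal of 10.9 over the 4 arrays, between 6.16 for cluster 23 and 17.9 for ND6, against 6.19 for all transcript clusters. Of the 30, 29 lay above the negative-control median and 13 above the 95th percentile of the negative controls. The shares of all transcript clusters above these thresholds are not given here. For scale, their median lay below the negative-control median of 6.34, and 2615 of 65770 had mean signals from 10 to 17.9. The median of the 30 clusters was 13.4 in fraction m and 9.89 in fraction p under anti-CCL3, and 12.3 in fraction m and 8.77 in fraction p under the isotype antibody. On these arrays 20, 7, 16 and 7 clusters, in the same order, stood above the 95th percentile of that array's negative controls. The mitochondrial transcripts as a class were thus bright in fraction m under both antibodies and several log2 units dimmer in fraction p. None of the 30 was at the highest value of the table, 19.93, on any array. Probes differ in how well they bind, so levels are not compared between clusters.

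**Figure D1:**
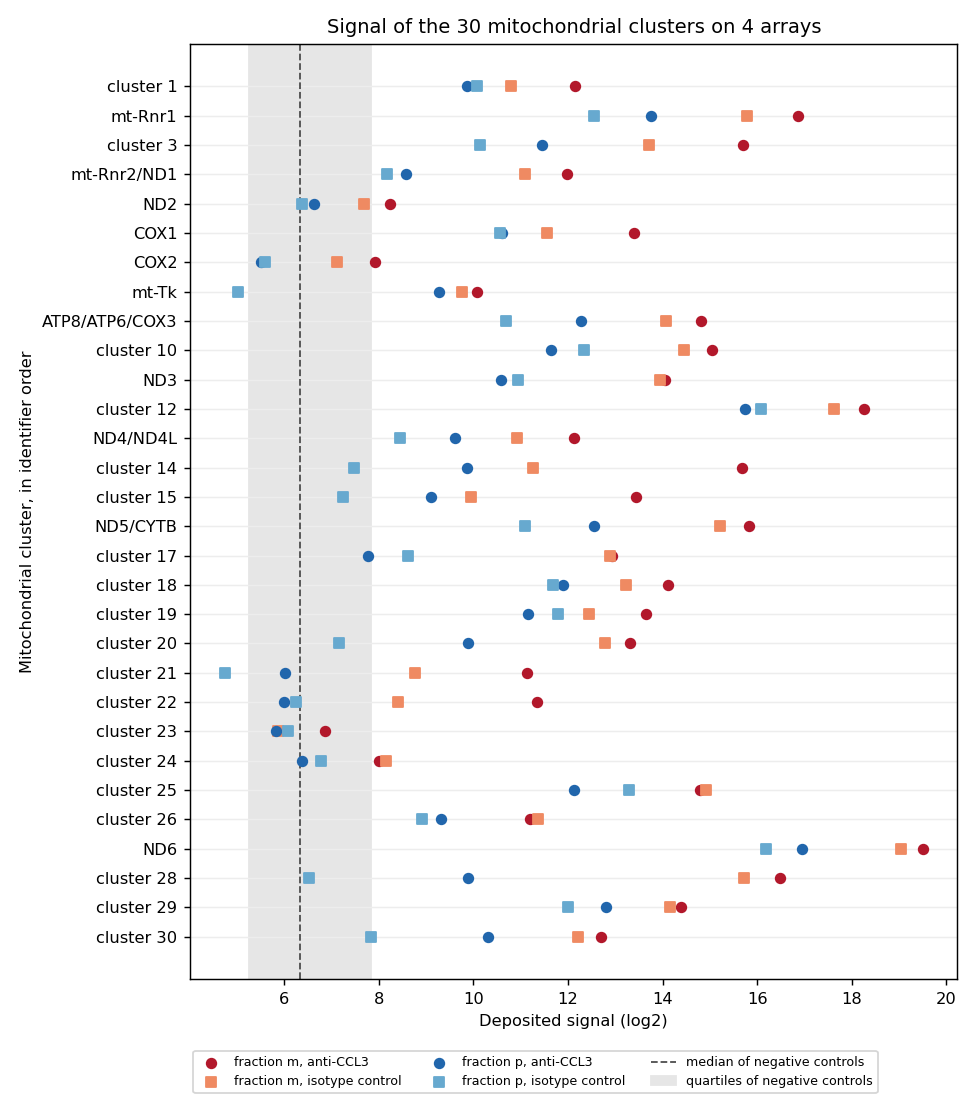
Deposited log2 signal (x axis) of each of the 30 mitochondrial clusters (rows) on the 4 arrays, with fraction m in red tones and fraction p in blue tones, circles for anti-CCL3 and squares for isotype control antibody. The dashed line is the negative-control median of 6.34 and the grey band its quartiles, 5.27 to 7.84. In 29 of 30 rows both blue points lie to the left of both red points, with cluster 23 as the exception.

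The comparison of fractions asks how the RNA of the cell fractions m and p differs. By median fitted difference, ribosomal RNA, transfer RNA, complex I and complex IV clusters stood lower in fraction p, as did shared and unnamed clusters. Ribosomal RNA and transfer RNA had 1 single-class cluster each, and no cluster read complex III or complex V alone. The median difference, p minus m, was -2.76 over the 30 clusters, which is 6.78 times lower on the linear scale, with -2.59 under anti-CCL3 and -2.59 under the isotype antibody. Over all transcript clusters the median was -0.02. Both arrays of fraction p lay below both arrays of fraction m in 29 of 30 mitochondrial clusters, against 20.4% of all 65770 transcript clusters, and the difference was -1 or lower under both antibodies in 26 of 30, against 0.862%. Because the set was taken up with this contrast known, nothing is read from these shares. In bulk RNA, fewer cells that hold a transcript and less of it per cell cannot be told apart.

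The ribosomal RNA cluster had nearly the same difference under both antibodies. mt-Rnr1, the RNA of the small mitochondrial ribosomal subunit, had a signal of 16.9 in m and 13.8 in p under anti-CCL3, and of 15.8 in m and 12.6 in p under the isotype antibody. Both p arrays were about 3 log2 units below their m partner, with a fitted difference of -3.17 ± 0.13 (SE, 4 arrays). The cluster annotated with both mt-Rnr2, the RNA of the large subunit, and the complex I gene ND1 had 11.98 and 8.57 under anti-CCL3 and 11.1 and 8.19 under the isotype antibody, with -3.16 ± 0.20 (SE). Its value belongs to neither gene alone. Unnamed cluster 3, numbered between these 2, had 15.7 and 11.4, then 13.7 and 10.1, with -3.92 ± 0.25 (SE).

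Complex I subunits were read by 4 clusters that hold no gene of another class, with a median difference of -2.59. ND6 is the subunit gene that lies on the strand opposite to the other mitochondrial protein genes. Its signal was 19.5 in m and 17.0 in p under anti-CCL3, and 19.0 and 16.2 under the isotype antibody, with a difference of -2.70 ± 0.16 (SE). ND3 had 14.1 and 10.6, then 13.95 and 11.0, with -3.24 ± 0.20 (SE), so its m arrays were nearly equal to each other. The cluster of ND4 and its overlapping neighbour ND4L had 12.1 and 9.62, then 10.9 and 8.45, with -2.49 ± 0.13 (SE), and the differences under the antibodies, -2.51 and -2.47, were the closest of any mitochondrial cluster. ND2 had 8.24 and 6.63, then 7.69 and 6.38, with -1.46 ± 0.16 (SE). Its p arrays stood near the negative-control median.

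Complex IV was read by a pair of single-gene clusters with a median difference of -1.94. COX1, the catalytic subunit, had a signal of 13.4 in m and 10.6 in p under anti-CCL3, and of 11.6 and 10.6 under the isotype antibody. The p arrays were alike and the m arrays were not, so the difference of -1.90 ± 0.59 (SE) was made of -2.80 and -1.004. COX2, here the mitochondrial subunit gene and not the prostaglandin synthase, had 7.93 and 5.51, then 7.12 and 5.60, with -1.97 ± 0.31 (SE), and its p arrays lay below the negative-control median. The cluster shared by ATP8, ATP6 and COX3 had 14.8 and 12.3, then 14.1 and 10.7, with -2.96 ± 0.30 (SE). It joins complex V with complex IV and cannot be assigned to either. The cluster shared by ND5 and CYTB, which joins complex I with complex III, had 15.8 and 12.5, then 15.2 and 11.1, with -3.70 ± 0.29 (SE).

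The only annotated transfer RNA cluster was mt-Tk, the transfer RNA for lysine. Its signal was 10.1 in m and 9.27 in p under anti-CCL3, and 9.77 and 5.03 under the isotype antibody. The value of 5.03 lay below the lower quartile of the negative controls, 5.27. A single array, fraction p under the isotype antibody, stood far below the other 3, and the fitted difference of -2.78 ± 1.26 (SE) was made of -0.81 and -4.74. This was the widest gap between both antibody groups among the 30 clusters. Without either anti-CCL3 array the value is -4.74, and without either isotype control array it is -0.81.

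The 19 unnamed clusters had a median difference of -2.74, close to -2.78 for the 11 annotated ones, but a wider spread, with an SD over clusters of 1.74 against 0.67. Cluster 28 had the most negative difference of all 65770 transcript clusters, -7.89 ± 0.84 (SE). Its signal was 16.5 in m and 9.89 in p under anti-CCL3, and 15.7 and 6.53 under the isotype antibody, so its last value was near the negative-control median while the m arrays were bright. Clusters 14, 17, 20 and 21 lay between -4.79 and -4.52. For scale, the 314 negative controls with mean signals from 10 to 12 had differences from -6.79 to 9.39, with an SD of 1.39. Clusters 14, 17 and 20, of like brightness, lay within that range. Cluster 14 had 15.7 and 9.88, then 11.3 and 7.47. Cluster 17 had 12.9 and 7.78, then 12.9 and 8.62, with m arrays that were almost equal. At the other end cluster 23 had 6.86 and 5.84, then 5.87 and 6.08, all within the quartiles of the negative controls. It was the only cluster whose fractions overlapped and was below the level required for testing.

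Other bright unnamed clusters stood closer to the annotated ones. Cluster 12 had 18.3 and 15.7, then 17.6 and 16.1, with -2.03 ± 0.34 (SE), and both p arrays were still bright. Cluster 25 had 14.8 and 12.1, then 14.9 and 13.3, with -2.14 ± 0.35 (SE). Cluster 10 had 15.0 and 11.7, then 14.4 and 12.3, with -2.74 ± 0.43 (SE). In clusters 10, 12 and 25 the lowest of the 4 signals was that of fraction p under anti-CCL3. Cluster 29 had 14.4 and 12.8, then 14.2 and 12.01, and cluster 18 had 14.1 and 11.9, then 13.2 and 11.7, with -1.87 and -1.89. Cluster 30 had 12.7 and 10.3, then 12.2 and 7.84, so its lowest signal was in fraction p under the isotype antibody, as in mt-Tk and cluster 28. This was common in the set. Within fraction p the isotype array was the lower one in 19 of 30 mitochondrial clusters, and in 33910 of all 65770 transcript clusters.

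Several dimmer clusters stood near or below the negative-control median in fraction p. Cluster 21 had 11.1 and 6.02, then 8.78 and 4.75, and cluster 22 had 11.3 and 6.00, then 8.41 and 6.25. The difference of cluster 22, -3.75, was made of -5.34 and -2.15. In both, the m array under anti-CCL3 was the brightest by more than 2 log2 units. Cluster 24 had 8.01 and 6.37, then 8.16 and 6.78, with -1.51 ± 0.15 (SE). Clusters 1 and 19 had most of their difference under anti-CCL3. Cluster 1 had 12.1 and 9.86, then 10.8 and 10.1, which gives -2.29 and -0.73. Cluster 19 had 13.7 and 11.1, then 12.4 and 11.8, which gives -2.51 and -0.66. Clusters 15, 20 and 26 lay at -3.53, -4.52 and -2.16. Quantile normalisation moved the fraction difference by over 1.5 times in COX1, to -1.20, and in clusters 1, 18, 19 and 29, to -0.91, -1.03, -0.76 and -1.19.

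**Figure D2:**
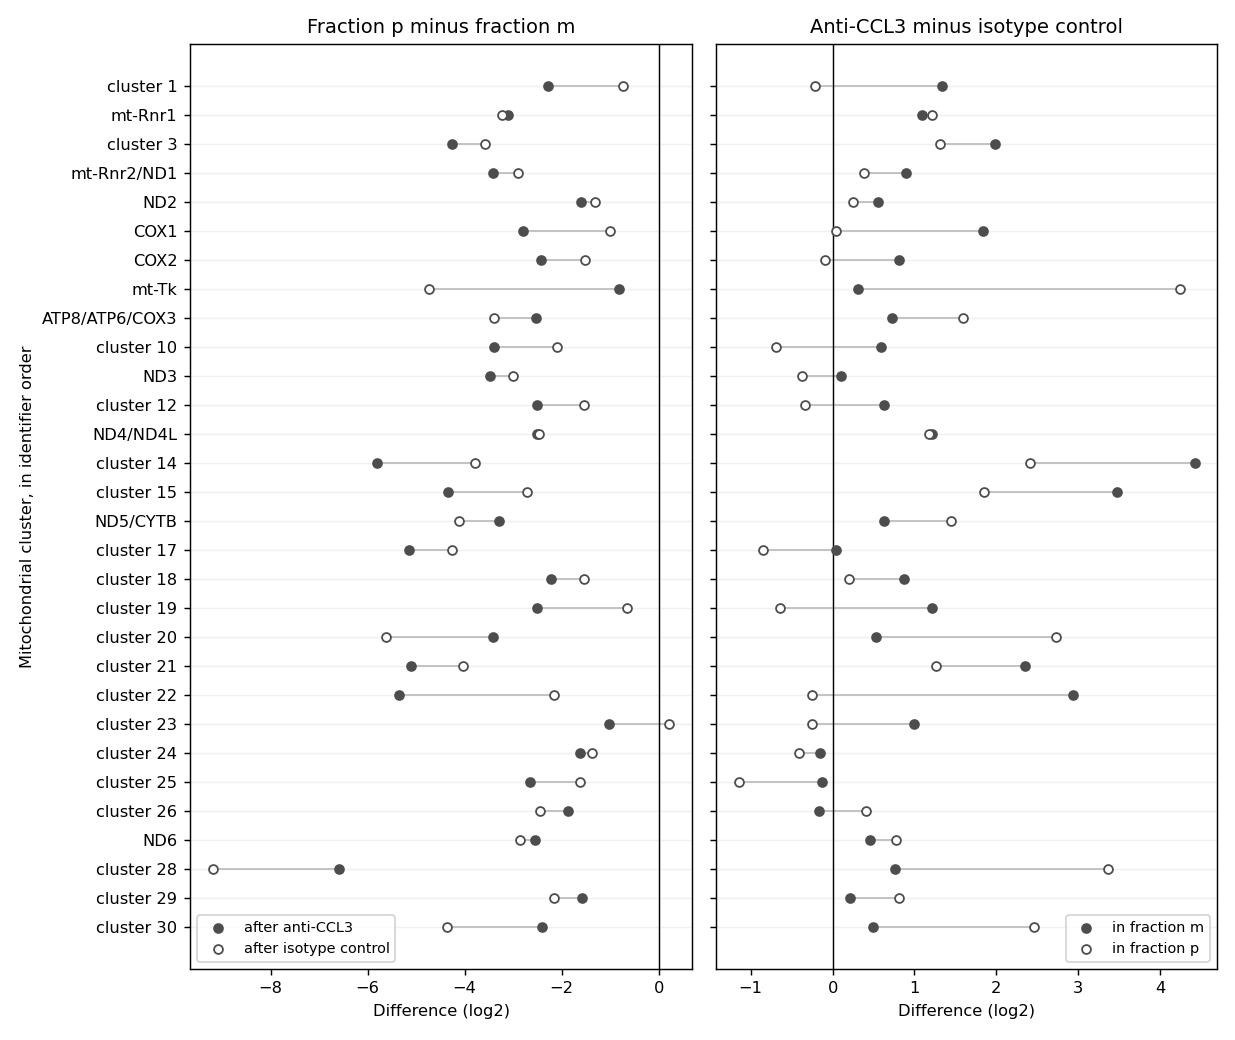
Log2 difference (x axis) of each mitochondrial cluster (rows) from 1 array against 1 array. The left panel shows fraction p minus fraction m under anti-CCL3 (filled) and the isotype antibody (open), the right panel anti-CCL3 minus isotype control in fraction m (filled) and fraction p (open), with a line joining both values. On the left all points but 1 are below 0 and cluster 28 lies farthest out, while on the right 10 rows have points on both sides of 0.

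The size of the fraction difference of a cluster was partly shared between the antibody groups, which have no array in common. Across the 30 clusters, which are not independent replicates since they share arrays and precursor RNAs, Pearson's r was 0.59 and Spearman's rho 0.50 between the differences under anti-CCL3 and under the isotype antibody. Without cluster 28, r was 0.42 and rho 0.45. The size had little relation to brightness, with r of -0.11 against the mean signal. Clusters numbered up to the cluster of ND5 and CYTB, 16 in all, had a median of -2.87, and the 14 numbered after it, ND6 among them, had -2.43.

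Other bright clusters also stood lower in fraction p, but by less. With mean signals from 10 to 17.9, the brightest mitochondrial cluster, 2594 other transcript clusters had a median difference of -0.66, against -2.74 for 21 mitochondrial clusters. In that range both p arrays were below both m arrays in 34.5% of all 2615 clusters and in 21 of 21 mitochondrial ones, and the difference was -1 or lower under both antibodies in 10.1% and in 19 of 21. Between 12 and 14, where the other clusters stood lowest, they were at -0.18 under anti-CCL3 and -1.44 under the isotype antibody, so most of their difference came from 1 pair of arrays. The 10 mitochondrial clusters of that range were at -2.97 and -2.58. Negative controls were at -0.32, -0.43 and -0.75 in the ranges from 10 to 12, 12 to 14 and 14 to 18. The 92 spiked ERCC control probe sets were at 0.24, but their median signal was 5.12, so they are not matched for brightness. In the ranges from 10 to 12 and from 14 to 18 the other clusters were at -0.38 and -0.39 under anti-CCL3 and at -0.56 and -0.65 under the isotype antibody. The mitochondrial ones were at -2.65 and -2.54, then at -3.13 and -2.86, so that both were lower under the isotype antibody there. The part of brightness in the difference was not tested.

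**Figure D3:**
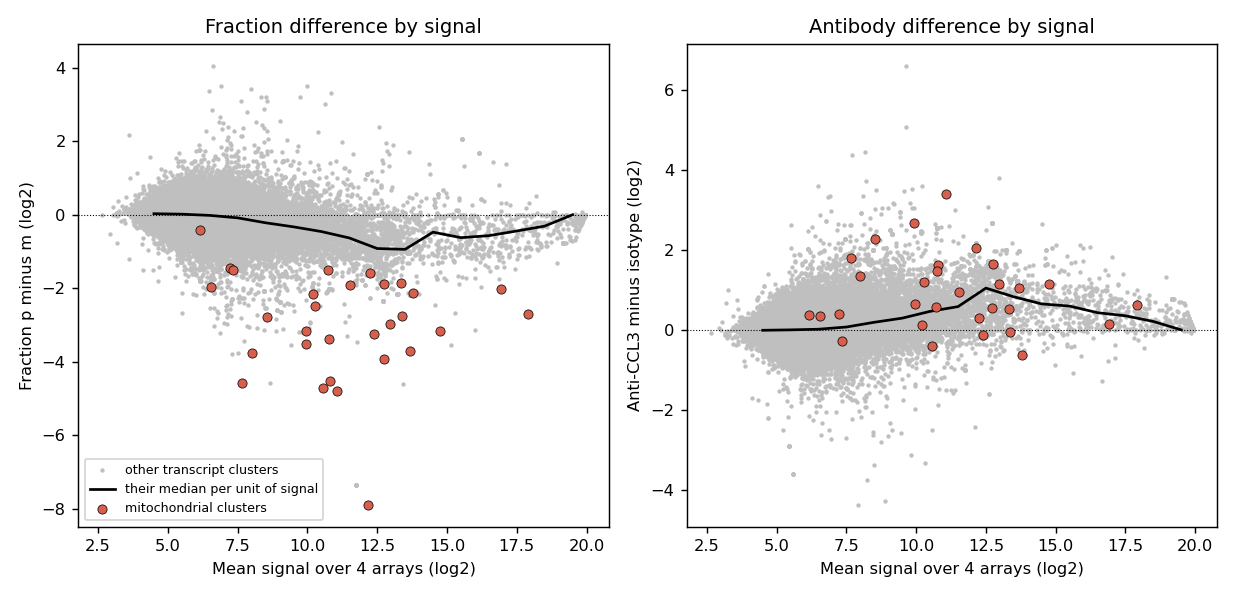
Difference between fractions (left, p minus m) and between antibodies (right, anti-CCL3 minus isotype control), in log2 units, against the mean log2 signal over 4 arrays. Grey points are the other transcript clusters, the black line is their median per unit of signal, and red points are the 30 mitochondrial clusters, which all lie below the line on the left and on both sides of it on the right.

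Among the chromosomes in the cluster identifiers, the mitochondrial genome had the lowest median in this contrast. Medians of the 21 nuclear chromosomes ran from -0.71 for Y, whose 558 clusters were also bright with a median signal of 10.3, through -0.05 for the next lowest to -0.004. All nuclear chromosomes but Y had median signals of 6.10 to 6.31, below the negative-control median of 6.34. They are thus unlike the mitochondrial set, at 10.9, in brightness. The median of Y was -0.30 under anti-CCL3 and -1.14 under the isotype antibody, unlike the mitochondrial median, which was -2.59 under each. Of the 100 transcript clusters with the most negative fraction difference, 18 were mitochondrial, and 14 of the 50 most negative.

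**Figure D4:**
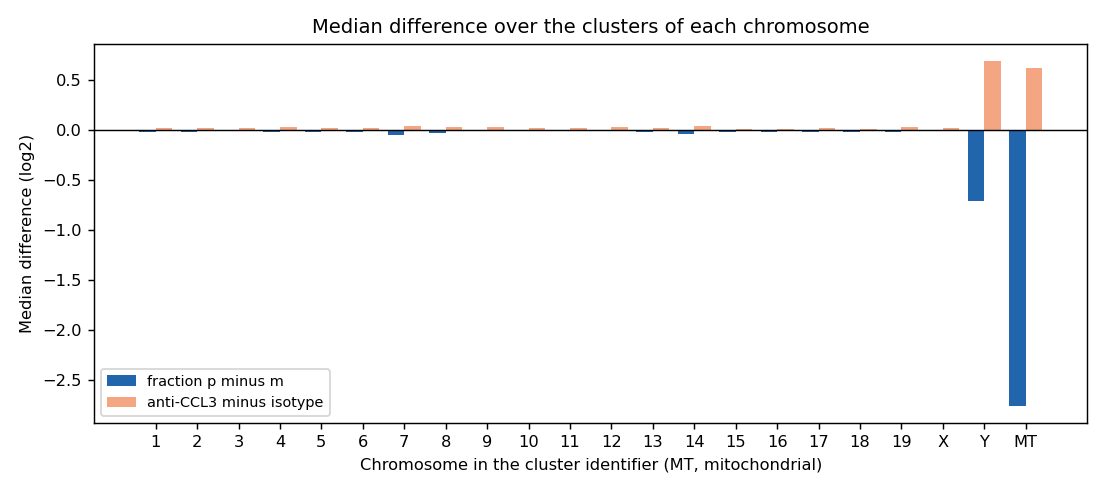
Median log2 difference (y axis) over the transcript clusters of each chromosome (x axis, MT for mitochondrial), with fraction p minus m in blue and anti-CCL3 minus isotype control in orange. The blue bar of MT, at -2.76, is the longest, and its orange bar, at 0.63, is about as high as that of Y, at 0.69. Median signals were 10.9 for MT, 10.3 for Y and 6.10 to 6.31 for the remaining chromosomes.

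In limma's test across 32885 clusters, 29 of the 30 mitochondrial ones were bright enough to be tested, and 0 passed for fraction once p was adjusted by Benjamini-Hochberg, where it ran from 0.542 to 0.626. Over all clusters tested 0% passed, with 0.542 the smallest adjusted p. At an unadjusted p below 0.05 were 2963 clusters, 2394 of them lower in fraction p, and 25 of the 29 mitochondrial ones. Standard errors of the mitochondrial differences had a median of 0.31. The fit leaves 1 residual degree of freedom and a prior of 1.46, which keeps errors from falling much below 0.13, so errors near that value are not a measured spread. A p that misses the threshold does not show that the fractions are alike.

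The comparison of antibodies asks how blocking CCL3 is reflected in the RNA. Mitochondrial clusters mostly had higher signals under anti-CCL3, by less than they differed between fractions. The median difference, anti-CCL3 minus isotype control, was 0.63 over the 30 clusters, with 0.74 (m) and 0.40 (p) in the fractions, against 0.03 over all transcript clusters. Quantile normalisation gave 0.31, cyclic loess 0.35 and median centring 0.61. The anti-CCL3 array was higher in both fractions in 18 of 30 clusters, or 14 after quantile or cyclic loess normalisation, lower in both in 2, clusters 24 and 25, and higher in one fraction and lower in the other in 10. Among all transcript clusters 30.1% were higher in both fractions, and among the bright ones 60.8%, against 13 of 21 bright mitochondrial clusters. The bright mitochondrial clusters had a median of 0.61, and the 2594 other clusters of that brightness 0.62. This likeness did not hold within each narrower range. Between 10 and 12 the 8 mitochondrial clusters were at 1.07 and the others at 0.50. Between 12 and 14 the 10 mitochondrial clusters were at 0.53 and the others at 0.97. Between 14 and 18 the 3 mitochondrial clusters were at 0.61 and the others at 0.51. Less the median of the clusters within 0.5 of its own signal, a setting chosen after seeing the data, the median mitochondrial cluster was at 0.32.

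By role, mt-Rnr1 stood 1.15 ± 0.13 (SE) higher under anti-CCL3, the fractions m and p giving 1.09 and 1.21. The cluster of ND4 and ND4L had 1.19 ± 0.13 (SE), with 1.21 and 1.18. Both anti-CCL3 arrays of these clusters were about 1 log2 unit above the isotype control array of the same fraction as deposited. This size depended on the scaling, with 0.40 and 0.72 for mt-Rnr1 and 0.77 and 0.76 for ND4/ND4L after quantile and cyclic loess normalisation. ND6 stood at 0.61 and ND2 at 0.40, each with the same sign in both fractions. ND3 stood at -0.13, the fractions m and p giving 0.10 and -0.37. COX1 was at 0.94, but almost all of it lay in fraction m, with 1.84 against 0.05 in fraction p, and COX2 was at 0.36, with 0.81 and -0.09. The shared cluster of ATP8, ATP6 and COX3 was at 1.16 and that of ND5 and CYTB at 1.04, each higher in fraction p, at 1.59 and 1.45, than in fraction m, at 0.73 and 0.62. mt-Tk was at 2.28 ± 1.26 (SE), made of 0.31 (m) and 4.25 (p), where the isotype array read only 5.03. The signs of these annotated clusters held after quantile and cyclic loess normalisation, but most sizes did not. The quantile and cyclic loess values were 0.32 and 0.37 for COX1, 0.32 and 0.34 for ND6, 0.42 and 0.55 for ATP8/ATP6/COX3, and 0.22 and 0.48 for ND5/CYTB. ND3 went to -0.94 and -0.74. mt-Tk was at 2.10 and 2.08, but its difference rests mostly on the 1 low isotype array of fraction p.

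The largest antibody differences belonged to unnamed clusters. Cluster 14 was at 3.41, the fractions giving 4.42 (m) and 2.41 (p), and cluster 15, next in number, at 2.66, with 3.47 and 1.85. In both, the anti-CCL3 array was the higher one in each fraction. Antibody differences of negative controls ran from -2.93 to 6.68 at mean signals from 10 to 12, and from -4.90 to 4.43 from 8 to 10. Clusters 14 and 15 lay within the range of controls of their own signal. Over the 30 clusters the antibody differences in fractions m and p, which share no array, had r of 0.22 and rho of 0.21. In 0 of 30 clusters did both anti-CCL3 arrays lie above both isotype control arrays, which was so in 18.6% of all transcript clusters. The larger fraction difference nearly fixes this count, so it says nothing of the antibody. In the same limma test 0 of 29 clusters passed for antibody after Benjamini-Hochberg adjustment, with adjusted p from 0.674 to 0.998. Over all clusters 0% passed, and 2390 lay at an unadjusted p below 0.05, among them 8 of the 29.

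Nuclear genes that work with the mitochondrial genome stood near 0 in both contrasts. Of 196 measured genes in 8 lists, 72 were tested, 40 lower and 32 higher in fraction p, and 0 passed for fraction or for antibody. List medians of the fraction difference over all measured genes ran from -0.07 to 0.07, and of the antibody difference from -0.04 to 0.12. Their median signals ran from 5.77 to 6.49, within the quartiles of the negative controls, as was the median of all transcript clusters, 6.19. None of these genes reached the controls' 95th percentile, for which the share of all transcript clusters is not given here. By their medians, the arrays hold little signal from these transcripts.

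Among 34 nuclear subunits of complex I, 14 were tested, 7 lower and 7 higher, between Ndufb10 and Ndufb2 at -0.22 and -0.16, and Ndufb8 and Ndufs6 at 0.15 and 0.32. Of 9 subunits of complex III only Uqcrh was tested, at -0.11. Of 15 subunits of complex IV, 7 were tested, 3 lower and 4 higher, with Cox4i2 and Cox7b at -0.29 and -0.22, and Cox6b2 and Cox5b at 0.12 and 0.47. Of 14 subunits of complex V, 7 were tested, 3 lower and 4 higher, with Atp5l and Atp5j2 at -0.57 and -0.07, and Atp5a1 and Atp5h at 0.17 and 0.17. Atp5l, at a mean signal of 11.4, was the brightest of these nuclear genes, with -1.39 under anti-CCL3 and 0.25 under the isotype antibody.

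Of 75 mitochondrial ribosomal protein genes, 26 were tested, 18 lower and 8 higher, with Mrpl22 and Mrpl21 at -0.76 and -0.61, and Mrps36 and Mrpl18 at 0.19 and 0.23. Mrpl22, of the large subunit, was the only gene of all 8 lists at an unadjusted p below 0.05, with an adjusted p of 0.542. Of 25 genes of mitochondrial DNA transcription, maintenance and RNA processing, 7 were tested, 2 lower and 5 higher. They lay between Tefm, a factor of transcription elongation, at -0.17 and Grsf1, an RNA-binding protein, at -0.03, and Hsd17b10 and Prorp, subunits of the enzyme that cuts the 5′ ends of transfer RNAs, at 0.13 and 0.17. Of 16 mitochondrial aminoacyl-tRNA synthetases, 3 were tested, Sars2, Wars2 and Vars2, at -0.17, -0.05 and 0.02. Of 8 outer membrane and import genes, 7 were tested, 4 lower and 3 higher, with Timm23 and the channel gene Vdac3 at -0.37 and -0.23, and Timm44 and Vdac2 at 0.03 and 0.08. Timm23 had opposite signs under the antibodies, -0.93 and 0.20.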

How the data were processed

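The 4 arrays were deposited as 1 table of log2 signals. According to the tools listed per the submitters' processing notes, the authors ran RMA in Expression Console. RMA is a method that usually corrects background, normalises between arrays and summarises the probes of a set. Per the labels' protocols, RNA was amplified with the WT Pico kit. The sources used here do not give versions, annotation release or genome build, so no coordinates are printed. The values were used as deposited. Members are all identifiers starting with TC0M. Genes were named from the platform's annotation, with repeats of a symbol removed and the brightest cluster kept per nuclear gene. limma 3.58.1 in R 4.3.3 was fitted across all genes and unnamed clusters with a mean signal of at least 6.19, the median, with antibody and fraction as additive terms and Benjamini-Hochberg adjustment at 0.05. The 186 clusters without a chromosome or contig were left out. The fit was run on simulated data with planted differences, and the outcome is not given here. A difference within a fraction or antibody compares single arrays and was not tested. Members and lists were chosen with earlier results of these data known. All members were named, and of each pathway list and the macrophage list the 2 highest and 2 lowest tested genes by fraction difference. Alternatives were other normalisations, filters, summaries and arrays left out.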

Additional observations from a re-analysis of the deposited data

Results flagged for a closer look

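In 10 mitochondrial clusters the same contrast had opposite signs in 2 groups, and the difference between those groups was not tested, since each value rests on single arrays. Fraction p minus m was -1.02 under anti-CCL3 and 0.21 under the isotype antibody in cluster 23. Anti-CCL3 minus isotype control, in fraction m and then in fraction p, was 1.34 and -0.22 in cluster 1, 0.81 and -0.089 in COX2, 0.59 and -0.69 in cluster 10, and 0.10 and -0.37 in ND3. It was 0.63 and -0.34 in cluster 12, 0.044 and -0.85 in cluster 17, 1.21 and -0.64 in cluster 19, 2.94 and -0.25 in cluster 22, and 0.99 and -0.25 in cluster 23. In 9 of the 10 the positive value was in fraction m, and in cluster 26 it was in fraction p, at 0.40 against -0.16.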

How the results depend on the processing

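The median fraction difference of the mitochondrial clusters, -2.76, kept its sign under each alternative run, and all 30 clusters kept theirs under each normalisation. It was -2.27 after quantile normalisation, -2.34 after cyclic loess normalisation and -2.74 after median centring. It was -2.78 over tested clusters and over those with a gene name, -2.95 as a mean and -2.74 over the clusters with a mean signal of 10 or more. Less the median of all clusters in the same range of signal it was -2.70. That range pools dim and bright clusters, so this value is not matched for brightness. Less the median of clusters within 0.5 of each member's own signal, the median fraction difference was -2.15. The restriction to a signal of 10 and the medians within 0.5 were chosen after seeing the data, in both contrasts. Without 1 array the median fraction difference equals that of the remaining pair of arrays, -2.59 under either antibody, and is no check. After quantile and cyclic loess normalisation cluster 19 joined cluster 23 as a cluster whose fractions overlapped.

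The median antibody difference, 0.63, was 0.31 after quantile and 0.35 after cyclic loess normalisation, 0.90 as a mean, 0.94 over named clusters and 0.32 less the median of clusters within 0.5. The sign turned in 6 of 30 clusters after quantile and in 5 after cyclic loess normalisation, all of them unnamed. No setting gave a call in either contrast, and with 1 array left out no residual degree of freedom was left, so that count has no value. Of 60 single-cluster differences, fraction and antibody together, 20 moved by more than the spread between both pairs of arrays after quantile normalisation, 21 after cyclic loess normalisation and 0 after median centring, which shifts each array as a whole. With an array left out a single-cluster difference equals that of the remaining pair and is no check. The cause of these shifts was not tested. No pairing beyond the antibody and fraction terms could be fitted, since each combination of antibody and fraction has 1 array. The labels also give no replicate numbers. In fraction p, ND2 and COX2 stood within the quartiles of the negative controls, 5.27 to 7.84, so their signal there cannot be told from background. The same holds for mt-Tk in fraction p under the isotype antibody, at 5.03, below these quartiles.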
